A study of Mus musculus with 2 samples.

Results

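The cells described here are Ly6c2-positive, C1q-low monocytes among immune cells taken from MC38 tumours, grafts of a mouse colon adenocarcinoma line, on day 14 after inoculation. They were chosen from droplet-based single-cell RNA sequencing (10x) of 2 libraries, 1 of Ifnar1-SA mice and 1 of wild-type (WT) mice, with no treatment in either. Ifnar1-SA names an allele of Ifnar1, the gene of a type I interferon receptor chain, and SA is not spelled out in the labels. They call the material both infiltrating immune cells and CD8 T cells, and give neither the number of animals per library nor a sort.

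Barcodes entered with 1000 or more UMIs (unique molecular identifiers, which count captured transcript molecules), 500 or more genes and no more than 10% of UMIs from mitochondrial genes. A member held at least 20 UMIs of C1qa, C1qb, C1qc, Lyz2 and Csf1r together, at least 2 of Ly6c2, fewer than 3 of the T cell genes Cd3d, Cd3e, Cd3g and Trac, and fewer than 3 of the cell cycle genes Mki67, Top2a, Ube2c and Birc5. Its C1qa, C1qb and C1qc UMIs stayed under 0.5% of its total. This gave 421 members among 9059 kept barcodes, 255 of 5001 in Ifnar1-SA and 166 of 4058 in WT. They are called monocytes below, and barcodes of the same gate with at least 0.5% of UMIs on the C1q genes are called C1q macrophages (1402 in Ifnar1-SA and 1060 in WT).

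Classical monocytes are made in the bone marrow, carry the surface protein Ly6C and leave for the blood and for inflamed tissue by way of the chemokine receptor CCR2. In tumours they can mature into macrophages, losing Ly6C and gaining products such as complement C1q and apolipoprotein E. Type I interferon acts on them through the receptor chains IFNAR1 and IFNAR2, and signalling from them acts on the interferon-stimulated response element in the promoters of antiviral and chemokine genes.

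The promoters of 3 type I interferon-inducible genes and of 2 monocyte genes that the results turn on are shown to set that element beside the levels described below. The 250 bases before each start come from RefSeq (build GRCm38.p6), 5′ to 3′ on the strand of the gene, and the capitals mark matches to a pair of GAAA stretches with any 2 bases between them, searched on both strands with overlaps allowed.
Isg15, chr4:156200819-156201068, minus strand: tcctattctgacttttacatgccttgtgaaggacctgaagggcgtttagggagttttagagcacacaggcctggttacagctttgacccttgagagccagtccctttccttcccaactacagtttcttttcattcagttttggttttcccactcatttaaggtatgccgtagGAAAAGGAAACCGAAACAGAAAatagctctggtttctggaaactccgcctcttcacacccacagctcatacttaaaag
Ifit3, chr19:34583279-34583528, plus strand: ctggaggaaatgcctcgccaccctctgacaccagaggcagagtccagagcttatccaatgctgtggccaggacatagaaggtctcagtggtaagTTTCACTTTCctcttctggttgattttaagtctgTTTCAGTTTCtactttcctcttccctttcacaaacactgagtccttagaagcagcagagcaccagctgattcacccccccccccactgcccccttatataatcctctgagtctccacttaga
Cxcl10, chr5:92348890-92349139, minus strand: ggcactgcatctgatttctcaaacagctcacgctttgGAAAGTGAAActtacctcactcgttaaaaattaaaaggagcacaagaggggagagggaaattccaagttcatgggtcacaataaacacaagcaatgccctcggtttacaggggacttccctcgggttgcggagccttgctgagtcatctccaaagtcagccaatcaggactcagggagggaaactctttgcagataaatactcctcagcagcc
Ly6c2, chr15:75111972-75112221, minus strand: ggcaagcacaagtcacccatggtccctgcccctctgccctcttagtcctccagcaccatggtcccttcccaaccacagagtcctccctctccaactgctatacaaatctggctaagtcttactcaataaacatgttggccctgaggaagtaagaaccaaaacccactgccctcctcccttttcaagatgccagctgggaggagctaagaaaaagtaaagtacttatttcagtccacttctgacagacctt
Chil3, chr3:106167565-106167814, minus strand: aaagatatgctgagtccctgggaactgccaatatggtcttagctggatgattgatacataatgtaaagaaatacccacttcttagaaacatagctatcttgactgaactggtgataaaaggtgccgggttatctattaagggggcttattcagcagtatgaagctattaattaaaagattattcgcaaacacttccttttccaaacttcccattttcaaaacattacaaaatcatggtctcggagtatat
Isg15 held 3 overlapping matches, Ifit3 held 2 and Cxcl10 held 1, and neither the Ly6c2 nor the Chil3 stretch held these letters. Of the type I interferon list 24 of 54 promoters in the table (44.4%) had a match, of the classical monocyte list 0 of 14, and of all 27025 genes there 3.46%. For Ly6c2 the table has 2 starts, and the stretch shown belongs to the first.

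Monocytes were 5.10% of kept barcodes in Ifnar1-SA (95% exact Clopper-Pearson interval 4.51 to 5.75%) and 4.09% in WT (3.5 to 4.75%). Of the myeloid barcodes that passed the T cell and cell cycle limits they were 15.1% in Ifnar1-SA and 13.2% in WT. All intervals here and below cover counting error only, and with 1 library per genotype no difference has a replicate check and none was tested. The intervals of the shares overlapped, and the order turned with a minimum of 5000 UMIs, at 4.65% in Ifnar1-SA and 4.88% in WT. With a minimum of 40 UMIs of C1q, Lyz2 and Csf1r the shares were 3.34% in Ifnar1-SA and 3.33% in WT.

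The rule counts Lyz2, and Lyz2 itself differed between the libraries, at 8840 CPM (UMIs of a gene per 1000000 UMIs summed over the cells of a class) in monocytes of Ifnar1-SA and 12097 CPM in WT. Just inside that limit, with 20 to 24 UMIs, lay 22 members in Ifnar1-SA and 6 in WT, and just outside, with 15 to 19, lay 26 and 4 barcodes in Ifnar1-SA and WT. For the C1q limit, 23 Ifnar1-SA and 11 WT members held 0.4 to 0.5%, and 18 Ifnar1-SA and 15 WT barcodes outside held 0.5 to 0.6%. Few barcodes lay at the Ly6c2 limit: 11 Ifnar1-SA and 9 WT members had exactly 2 UMIs, and 14 and 9 barcodes had 1. A further 100 barcodes in Ifnar1-SA and 25 in WT met every term except that they held 3 or more T cell UMIs, with medians of 11214 UMIs in Ifnar1-SA and 12977 in WT, and they are not members. Their part in the results was not tested.

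**Figure D1:**
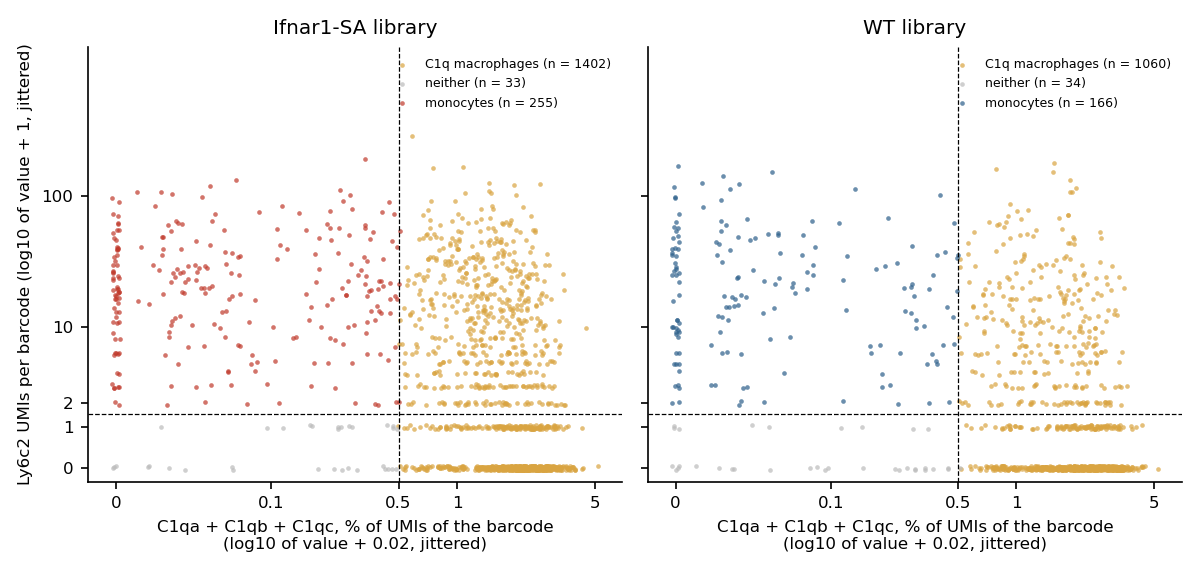
Ly6c2 UMIs per barcode (vertical, log10 of value + 1) against the share of UMIs on C1qa, C1qb and C1qc (horizontal, log10 of value + 0.02) for the myeloid barcodes under the T cell and cell cycle limits, Ifnar1-SA left and WT right, with slight jitter. Dashed lines are the limits of the rule, and the 255 Ifnar1-SA and 166 WT monocytes lie in the upper left of each panel.

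Members had medians of 5531 UMIs and 1746 genes in Ifnar1-SA and of 6722 UMIs and 1885.5 genes in WT, below the macrophage medians of 9252.5 UMIs in Ifnar1-SA and 10758 in WT. Summed over members there were 1805605 UMIs in Ifnar1-SA and 1322975 in WT, of library totals of 62732220 and 55497066. No barcode sequence was shared between the members of the libraries, and 7 were shared among all kept barcodes. Sex-linked transcripts differed: 142 members held Xist alone, 40 held Y-linked UMIs alone, 9 held both and 64 neither in Ifnar1-SA, against 154 with Xist alone, 0 with any Y-linked UMI and 12 with neither in WT. Y-linked transcripts were thus found in monocytes of the Ifnar1-SA library alone, so sex and genotype cannot be told apart, and values for Xist-only cells or for Y-linked Ifnar1-SA cells are given where they move a result.

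The label was checked against marker lists, as a description, since the cells were chosen on transcripts. All 18 of 18 measured genes of a classical monocyte list, which includes Ly6c2 and Lyz2 from the rule, were higher in monocytes than in macrophages in both libraries, with a median log2 ratio of 2.07 in Ifnar1-SA and 1.95 in WT. Over all 4649 measured genes (those averaging 20 CPM or more across the pair of libraries), 56.2% in Ifnar1-SA and 53.8% in WT were higher in monocytes. Ccr2, the receptor for exit from the marrow, was found in 90.2% of Ifnar1-SA and 91.6% of WT monocytes, at 695.6 CPM in Ifnar1-SA and 597.9 CPM in WT. It was found in 43.8% of T cell barcodes in Ifnar1-SA and 32.7% in WT. Lyz2, the myeloid lysozyme, was at 33.0 CPM in T cell barcodes of Ifnar1-SA and 32.3 CPM in those of WT. T cell barcodes were chosen to hold few UMIs of myeloid genes, Lyz2 among them. That low Lyz2 level therefore follows from the choice and does not check the label.

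Markers of other cells were low, and several lists had most of their UMIs in single barcodes. The neutrophil list summed to 52.1 CPM in Ifnar1-SA and 221.5 CPM in WT, with Ly6g, Camp, Ngp and Ltf at 0 in both, and 1 WT barcode held 214 of the 293 WT UMIs. Natural killer, B cell and mast cell lists each summed to under 10 CPM in both libraries, with Cd79a and Ms4a1 at 0. The plasmacytoid dendritic list had 65 of its 88 UMIs in 1 Ifnar1-SA barcode and 80 of its 92 in 1 WT barcode. The fibroblast list had 159 of 171 WT UMIs in 1 barcode and the endothelial list 100 of 135 Ifnar1-SA UMIs in 1 barcode. The type 2 dendritic list stood at 17.2 CPM in Ifnar1-SA and 70.3 CPM in WT, with Cd209a at 0 in Ifnar1-SA. The type 1 dendritic list stood at 58.7 CPM in Ifnar1-SA and 34.8 CPM in WT, the T cell list at 48.2 and 29.5 CPM, and the tumour-like list at 46.5 and 28.7 CPM, with Krt8, Krt18 and Krt19 at 0. The part of these cells in the results was not tested beyond the alternatives named. These barcodes stay in the sums, and results that rest on them are named.

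Against C1q macrophages, monocytes had more of the transcripts for calcium-binding S100 proteins and for myeloid surface and secreted proteins, and less of resident macrophage products. Intervals lay wholly above 1.5-fold in both libraries for 79 of 1313 genes (6.02%) and wholly below for 62 (4.72%). Plac8, a small cysteine-rich protein of monocytes (chromosome 5, 100553725 to 100572245), had 3767 CPM in monocytes and 591.1 CPM in macrophages of Ifnar1-SA, and 4560 CPM in monocytes and 437.8 CPM in macrophages of WT. Chil3, a chitinase-like lectin of monocytes and alternatively activated macrophages (chromosome 3, 106147554 to 106167564), had log2 ratios of 2.99 in Ifnar1-SA and 3.08 in WT, beside 2.67 and 3.38 for Plac8. These led the ranking by the smaller ratio of both libraries, and Chil3 is also a marker the cells were named for. Plac8 is not particular to monocytes here, nor is Ly6c2. Plac8 was found, unthinned, in 56.4% of T cell barcodes in Ifnar1-SA and 53.8% in WT, and Ly6c2 in 39.4% and 39.25%.

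The other leading genes were Hopx, Mcemp1, Ly6i, Gpr141, S100a4, S100a6, S100a11, Prdx6, Gng11 and Fn1. For Gng11, leaving out each library's few highest monocytes left 22 UMIs (13.5 CPM) in Ifnar1-SA and 9 UMIs (7.34 CPM) in WT. Its place may thus rest on a few barcodes and is not read as a feature of monocytes at large. S100a4, a calcium-binding protein of motile cells, had 2375 CPM in monocytes and 553.1 CPM in macrophages of Ifnar1-SA, against 2784 and 499.4 CPM in WT. It is no monocyte-specific gene here, since T cell barcodes had 2950 CPM in Ifnar1-SA and 2267 CPM in WT. Mcemp1, a mast cell and myeloid membrane protein, was at 113.0 CPM in monocytes of Ifnar1-SA and 129.3 CPM in those of WT, and at under 1 CPM in T cell barcodes of both. Fn1, the matrix protein fibronectin, had log2 ratios of 2.23 in Ifnar1-SA and 1.62 in WT.

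Ccl8, a chemokine of resident macrophages (chromosome 11, 82115185 to 82116799), was at 42.1 CPM in monocytes and 1239 CPM in macrophages of Ifnar1-SA, and at 74.1 and 1996 CPM in WT. Its log2 ratios of -4.88 in Ifnar1-SA and -4.75 in WT were the lowest. The others among the 12 lowest were Fcrls, Cd81, Hpgds, Acp5, Olfml3, Ms4a7, Pltp, Cd72, Ckb, Adgre1 and Ch25h. Adgre1, which encodes the macrophage antigen F4/80, had log2 ratios of -1.86 in Ifnar1-SA and -1.73 in WT, and Ch25h, the interferon-inducible cholesterol 25-hydroxylase, of -1.73 and -3.07. Barcodes with fewer than 100 UMIs, taken as free RNA, had 10375 CPM of Apoe in Ifnar1-SA and 10543 CPM in WT, and monocytes had 10361 CPM in Ifnar1-SA and 8023 CPM in WT. In T cell barcodes Apoe was at 139.4 CPM in Ifnar1-SA and 118.8 CPM in WT. These barcodes were chosen with under 3 UMIs of C1q, Lyz2 and Csf1r, which may also leave out barcodes with myeloid free RNA. Their Apoe level is therefore no gauge of free RNA, whose part in the monocyte level was not tested.

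By function, adhesion and matrix genes had a median log2 ratio of monocytes over macrophages of 0.89 in Ifnar1-SA and 0.84 in WT, inflammatory mediators 0.88 and 0.80, and hypoxia and glycolysis genes 0.81 and 0.46. Of the 21 hypoxia and glycolysis genes, 21 in Ifnar1-SA and 20 in WT were higher in monocytes. Dissociation stress genes were higher as well, at 0.66 in Ifnar1-SA (17 of 17 genes) and 0.33 in WT (15 of 17). The part of tissue handling in these differences was not tested. Lipid handling and lysosome genes were lower, at -0.82 in Ifnar1-SA and -1.04 in WT. Type I interferon genes were higher in monocytes, at 0.30 in Ifnar1-SA and 0.61 in WT. MHC class II presentation genes differed in sign, at 0.31 in Ifnar1-SA and -0.46 in WT.

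Plac8 stood lower in each bin with more C1q transcripts. Among Ly6c2-positive myeloid barcodes of Ifnar1-SA, Plac8 was at 5195, 4419, 2633, 1854 and 1106 CPM with a C1q share of 0, under 0.1%, 0.1 to 0.5%, 0.5 to 1% and 1% or more. In WT the same bins had 5894, 5187, 2824, 1661 and 1059 CPM. They hold 65, 95, 95, 133 and 426 barcodes in Ifnar1-SA and 50, 69, 47, 79 and 231 in WT. Since the bins are cut on C1q, a component of the macrophage programme, and their median depth ranged from 4851 to 10414.5 UMIs in Ifnar1-SA and from 6571 to 11770 in WT, this is a description of the gate.

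Chil3 kept its difference between the libraries in each bin. It was at 264.0, 152.7, 88.7, 57.0 and 37.7 CPM in Ifnar1-SA and at 598.9, 584.4, 458.1, 135.3 and 64.3 CPM in WT. Ms4a7, a tetraspan membrane protein of macrophages, went the other way, with 519.5, 512.8, 819.3, 1225 and 2056 CPM in Ifnar1-SA and 210.5, 410.2, 427.1, 504.0 and 1412 CPM in WT. Ccr2 was lowest in the bin with the most C1q, at 383.2 CPM in Ifnar1-SA and 292.4 CPM in WT.

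**Figure D2:**
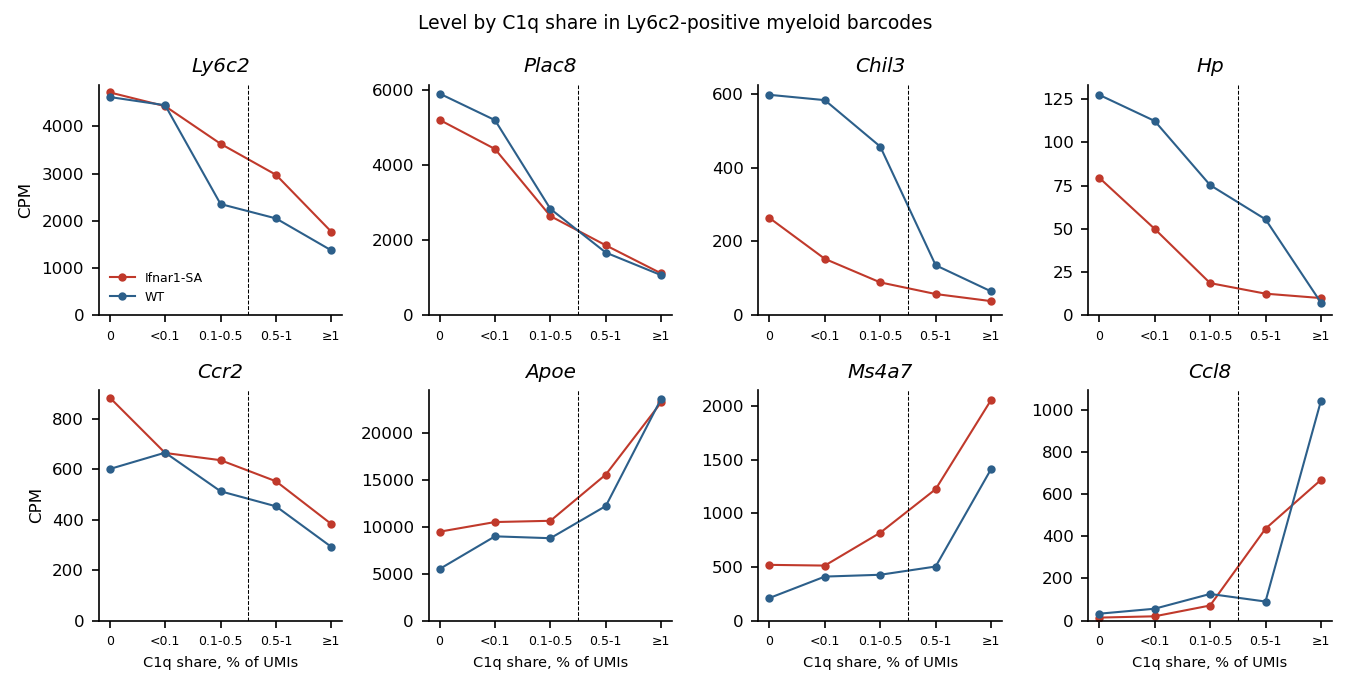
Level in CPM (vertical, from 0) of 8 genes in Ly6c2-positive myeloid barcodes by C1q share of UMIs (horizontal), Ifnar1-SA red and WT blue, with 1 library each and no error bar. The dashed line is the limit of 0.5%; Ly6c2, Plac8, Chil3 and Hp stand highest at the left and Apoe, Ms4a7 and Ccl8 at the right in both libraries.

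Between the genotypes, most genes of the classical monocyte, adhesion and chemokine lists stood lower in Ifnar1-SA monocytes, and MHC class I presentation genes stood higher. Few genes lay past 1.5-fold. Of 2543 genes tested (50 CPM or more in 1 library or the other, and 50 UMIs or more in all), 14 (0.551%) were higher and 22 (0.865%) lower in Ifnar1-SA with an interval wholly outside 1.5-fold. Over all measured genes the median log2 ratio was 0.08, with 61.6% above 0 and 38.4% below, and list values are to be read beside that shift. With ratios centred on the median gene, 9 genes were higher and 29 lower past 1.5-fold, and with cells thinned to 2000 UMIs 5 were higher and 13 lower.

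Ifnar1 (chromosome 16, 91485238 to 91507441, plus strand of mm10, protein-coding) was at 91.4 CPM in Ifnar1-SA monocytes (165 UMIs) and 71.8 CPM in WT (95 UMIs), a log2 ratio of 0.35 (-0.03 to 0.73). Ifnar2, the partner chain, was at 212.1 CPM in Ifnar1-SA and 193.5 CPM in WT, a log2 ratio of 0.13 (-0.10 to 0.37). Both intervals include 0, and these counts do not distinguish the alleles, so the genotype labels are not checked by them. Ly6c2 (chromosome 15, 75108158 to 75111970, minus strand), which the rule used, was at 4127 CPM in Ifnar1-SA and 3777 CPM in WT, a log2 ratio of 0.13. Of the last 500 bases of Ly6c2, 90 of 451 stretches of 50 bases also occur in its near copy Ly6c1, so reads of the pair may have been split or dropped.

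The classical monocyte list had 4 of 18 measured genes higher in Ifnar1-SA and a median of -0.45, with 13 intervals below 0 where 6.97% of all measured genes had one. Without Ly6c2 and Lyz2, which the rule used, 3 of 16 were higher and the median was again -0.45. Chil3 was at 145.7 CPM in Ifnar1-SA (263 UMIs in 35.7% of cells) and 545.0 CPM in WT (721 UMIs in 57.8%), a log2 ratio of -1.90 (-2.11 to -1.70). With each cell thinned to 2000 UMIs, which left out 5 Ifnar1-SA and 2 WT cells, 21.2% (16.3 to 26.8%) of Ifnar1-SA and 38.4% (30.9 to 46.3%) of WT monocytes held a Chil3 UMI. The share was lower in Ifnar1-SA and the intervals did not overlap, while T cell barcodes held it in 0.0880% in Ifnar1-SA and 0.25% in WT. The same direction stood in C1q macrophages, at -1.81.

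Hp, the haemoglobin-binding protein haptoglobin, also on the list, was at 41.5 CPM in Ifnar1-SA and 103.6 CPM in WT, a log2 ratio of -1.32 (-1.74 to -0.90). Of genes outside the lists, Adgre5, the adhesion receptor CD97, was at 32.1 CPM in Ifnar1-SA and 80.1 CPM in WT, again -1.32. Mgst1, a membrane glutathione transferase, had -1.02 (-1.29 to -0.76). Trf, the iron carrier transferrin, was at 62.6 CPM in Ifnar1-SA and 163.3 CPM in WT, a log2 ratio of -1.38, and was found in 10.4% (6.91 to 14.9%) of thinned Ifnar1-SA and 29.9% (22.99 to 37.5%) of thinned WT cells. Hp, Adgre5, Mgst1 and Trf stood lower in Ifnar1-SA under each of the alternatives tried. Plac8 and Il1b, the gene of interleukin 1 beta, were less apart, with log2 ratios of -0.28 (-0.33 to -0.23) and -0.24 (-0.32 to -0.16).

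Of the macrophage list 13 of 16 genes were higher in Ifnar1-SA monocytes, with a median of 0.28, but it holds C1qa, C1qb, C1qc and Csf1r, which the rule used. Leaving these out, a step added after seeing the data, put 9 of 12 on the higher side at a median of 0.21, and 6 had an interval above 0 (12.2% of all measured genes had one). Ms4a7 was at 651.9 CPM in Ifnar1-SA and 365.1 CPM in WT, a log2 ratio of 0.84 (0.68 to 0.99), and 40.8% (34.6 to 47.2%) of thinned Ifnar1-SA against 28.7% (21.9 to 36.2%) of thinned WT cells held it, with intervals that overlapped. Apoe had a log2 ratio of 0.37 (0.33 to 0.40). The median C1q share of the members was 0.0405% in Ifnar1-SA and 0.0212% in WT, and its part in these differences was not tested.

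Chemokines and their receptors had 7 of 17 genes higher in monocytes and a median of -0.32, beside 4 of 17 and -0.23 in C1q macrophages. Ccl6, a monocyte and macrophage chemokine, was at 158.4 CPM in Ifnar1-SA and 331.8 CPM in WT, a log2 ratio of -1.07. Ccl2 and Ccl12, both ligands of CCR2, had log2 ratios of -0.84 (-0.94 to -0.73) and -0.81 (-0.93 to -0.69). Here a few cells weigh heavily, since 5 cells held 54.2% of the WT Ccl12 UMIs, and leaving out each library's 5 highest cells gave a ratio for Ccl12 of -0.21 (-0.37 to -0.05) and for Ccl2 of -0.58 (-0.70 to -0.46). Ccl5, a chemokine for T cells, was at 1355 CPM in Ifnar1-SA and 1308 CPM in WT.

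Inflammatory mediators had 4 of 17 genes higher in monocytes and a median of -0.24, beside 6 of 17 and -0.17 in C1q macrophages. Cxcl2, which attracts neutrophils (chromosome 5, 90903871 to 90905938), was at 327.3 CPM in Ifnar1-SA and 864.0 CPM in WT, a log2 ratio of -1.40 (-1.55 to -1.26) that was -0.64 without barcodes over 20000 UMIs or with markers of other cells. Thbs1, the matrix protein thrombospondin 1, which the adhesion list holds too, was at 420.4 CPM in Ifnar1-SA and 899.5 CPM in WT, a log2 ratio of -1.10 (-1.23 to -0.96). It was found in 36.4% (30.4 to 42.7%) of thinned Ifnar1-SA and 55.5% (47.5 to 63.2%) of thinned WT cells. Cd14, the co-receptor for bacterial lipopolysaccharide, had -0.59 (-0.69 to -0.49). Nfkbia, the inhibitor of NF-kappa B, was among the few on the higher side, at 0.25 (0.01 to 0.48).

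Adhesion and matrix genes had 4 of 15 higher, a median of -0.45 and 10 intervals below 0, where 6.97% of all measured genes had one. F13a1, Vcan and Fn1 are on the classical monocyte list as well. Cd44, the hyaluronan receptor, was at 206.6 CPM in Ifnar1-SA and 362.1 CPM in WT, a log2 ratio of -0.81 (-1.01 to -0.61). The clotting factor genes F10 and F13a1 had -0.84 and -0.81. Itgam, an integrin chain of myeloid cells, was less apart at -0.29.

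Of 10 measured genes of the alternatively activated and suppressive list 3 were higher in monocytes, with a median of -0.32, beside 1 of 11 and -0.64 in C1q macrophages. Arg1, the arginine-degrading enzyme arginase 1, was at 315.1 CPM in Ifnar1-SA and 488.3 CPM in WT, a log2 ratio of -0.63 (-0.80 to -0.47), and 24% (18.8 to 29.8%) of thinned Ifnar1-SA and 39.0% (31.5 to 46.9%) of thinned WT cells held it. Spp1, the secreted protein osteopontin, was at 201.6 CPM in Ifnar1-SA and 464.1 CPM in WT, a log2 ratio of -1.20. Tgfb1 had -0.45 (-0.72 to -0.18), while Trem2, a lipid receptor of macrophages, had 0.04. Mmp12, a macrophage elastase, was called higher at 1.75, but 5 cells held 88.2% of its Ifnar1-SA UMIs and the ratio was 0.67 (-0.83 to 2.35) when each library's 5 highest cells were left out.

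**Figure D3:**
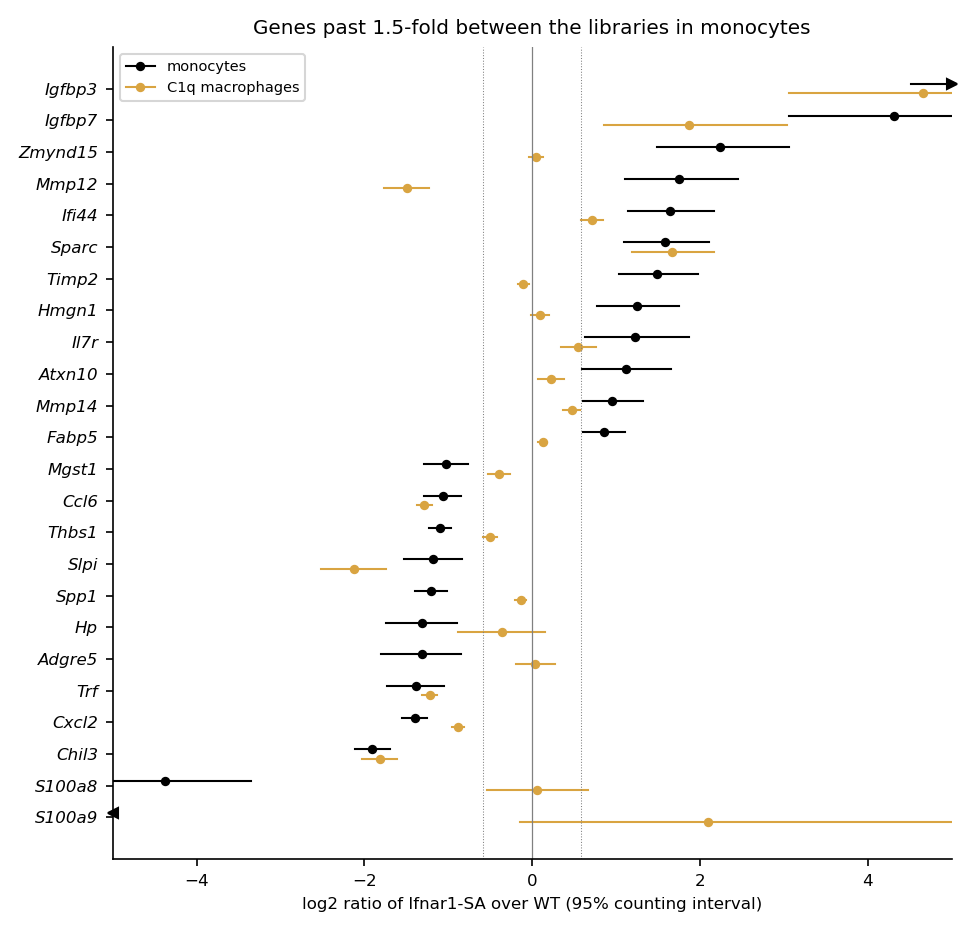
Log2 ratio of Ifnar1-SA over WT (horizontal) for the 12 highest and 12 lowest genes past 1.5-fold in monocytes, with 95% counting intervals; black is monocytes, yellow is C1q macrophages, dotted lines are 1.5-fold and arrowheads mark ratios beyond the axis. Igfbp3, Igfbp7, S100a8 and S100a9 owe their place to single cells and Sparc to a few cells, and Chil3, Cxcl2, Trf, Slpi and Ccl6 lie below 0 in both classes.

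Several genes at both ends of the ranking came from single cells or a few cells. In Ifnar1-SA 117 UMIs of Igfbp3 were found, 116 of them in 1 cell, and 0 in WT. Igfbp7 had 135 of 136 Ifnar1-SA UMIs in 1 cell, and Sparc, a matrix protein of fibroblasts and endothelium, had 97.2% of its Ifnar1-SA UMIs in 5 cells. At the low end S100a9 had 0 UMIs in Ifnar1-SA and 87 in WT, 86 of them in 1 cell, and S100a8 had 117 of 122 WT UMIs in 1 cell. Their ratios therefore describe single barcodes or, for Sparc, a few. Timp2 and Fabp5 were called higher as well, with 70.8% and 47.5% of their Ifnar1-SA UMIs in 5 cells.

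Among the genes called higher, Zmynd15, a zinc finger repressor, was at 60.4 CPM in Ifnar1-SA and 12.8 CPM in WT, a log2 ratio of 2.23 (1.49 to 3.06), in 19.2% of Ifnar1-SA and 7.83% of WT cells. Mmp14, a membrane-bound matrix protease, was at 134.6 CPM in Ifnar1-SA and 69.5 CPM in WT, in 53.3% and 32.5% of the Ifnar1-SA and WT cells. Il7r, a cytokine receptor chain, had 1.23 (0.62 to 1.87), with 63.3% of its 30 WT UMIs in 5 cells. With each library's 5 highest cells left out its ratio was 2.22 (1.29 to 3.28), on 71 UMIs in Ifnar1-SA and 11 in WT.

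MHC class I presentation genes had 19 of 21 higher in Ifnar1-SA, a median of 0.25 and 13 intervals above 0. Of all measured genes 61.6% were higher and 12.2% had an interval above 0. H2-T22 and H2-Q7, non-classical class I chains, had log2 ratios of 0.64 (0.43 to 0.85) and 0.63 (0.48 to 0.79), though class I genes are near copies of each other and reads may be split among them. Tap1, a subunit of the peptide transporter, was at 226.0 CPM in Ifnar1-SA and 164.0 CPM in WT, a log2 ratio of 0.46 (0.22 to 0.71). Psmb8, an immunoproteasome subunit, had 0.31 and B2m, the shared light chain, 0.13. In C1q macrophages 17 of 21 were higher and the median was 0.05. The list's median stayed between 0.13 and 0.29 under all alternatives tried.

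MHC class II presentation genes had 8 of 9 higher in Ifnar1-SA monocytes and a median of 0.20, while in C1q macrophages 1 of 8 was higher with a median of -0.58. H2-Aa, a class II alpha chain, was at 3371 CPM in Ifnar1-SA monocytes and 2867 CPM in WT monocytes, against 2716 CPM in Ifnar1-SA macrophages and 4365 CPM in WT macrophages. Cd74, the invariant chain, was at 8497 CPM in Ifnar1-SA and 8710 CPM in WT monocytes. More Ifnar1-SA cells held H2-Aa, 72.8% (66.8 to 78.2%) against 57.9% (49.98 to 65.6%) of thinned cells, and T cell barcodes held it, unthinned, in 9.94% in Ifnar1-SA and 12.7% in WT. The monocyte median was -0.068 with C1q allowed up to 1% and -0.062 with Y-linked Ifnar1-SA cells alone, so its sign rests on where the line to macrophages is drawn and on which cells of the library enter.

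**Figure D4:**
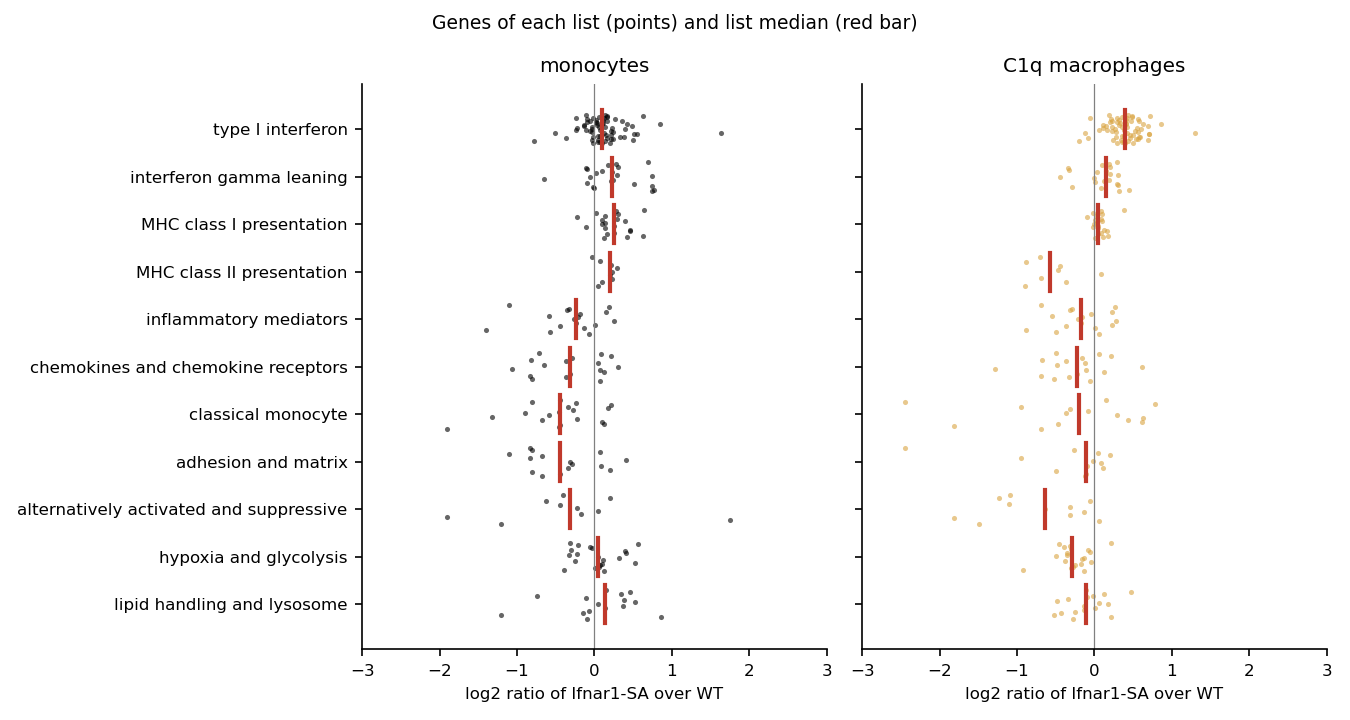
Log2 ratio of Ifnar1-SA over WT (horizontal) for the measured genes of 11 lists, each point a gene and each red bar the list's median, in monocytes (left) and C1q macrophages (right). The type I interferon median is 0.10 in monocytes and 0.40 in macrophages, and that of MHC class II presentation is 0.20 in monocytes and -0.58 in macrophages.

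The type I interferon list had 46 of 67 measured genes higher in Ifnar1-SA monocytes and a median of 0.10, close to the 0.08 of all genes. In C1q macrophages 63 of 67 were higher, with a median of 0.40 beside 0.08 for all genes there, of which 69.6% were higher. Whether the classes differ was not tested. With cells weighted equally the medians were 0.05 in monocytes and 0.45 in macrophages, and over Xist-only cells of both libraries 0.02 and 0.37.

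Of the list's intervals in monocytes 18 (26.9%) lay above 0, beside 12.2% of all measured genes, and 5 (7.46%) lay below, beside 6.97% of all. Ifi44, an antiviral protein (chromosome 3, 151730922 to 151749960), was the list member past 1.5-fold, at 96.4 CPM in Ifnar1-SA and 31.0 CPM in WT, a log2 ratio of 1.64 (1.14 to 2.16), in 14.4% (10.3 to 19.4%) of thinned Ifnar1-SA and 4.88% (2.13 to 9.39%) of thinned WT cells. T cell barcodes differed the same way, with Ifi44 in 11.8% in Ifnar1-SA and 4.5% in WT, unthinned. Ly6a, the surface antigen Sca-1, was at 2352 CPM in Ifnar1-SA and 1522 CPM in WT, a log2 ratio of 0.63. Irf7, which drives further interferon production, had 0.50 (0.37 to 0.63), and Slfn4, a schlafen protein of myeloid cells, 0.42 (0.23 to 0.60) in monocytes beside 1.3 in macrophages. On the other side Ifit2 had -0.51 (-0.71 to -0.30), Cxcl10 -0.37 (-0.47 to -0.26) and Isg15, a ubiquitin-like modifier, -0.11 (-0.19 to -0.04). Of the 3 genes whose promoters are printed above with a match, Isg15 and Cxcl10 had a lower pooled level but a higher share of cells in Ifnar1-SA. Ifit3 did not part in this way. Isg15 was found in 83.2% (78.0 to 87.6%) of thinned Ifnar1-SA and 71.3% (63.8 to 78.1%) of thinned WT cells, and its ratio was -0.03 (-0.12 to 0.05) with each library's 5 highest cells left out. Cxcl10 was found in 38.0% of thinned Ifnar1-SA and 34.1% of thinned WT cells, with a ratio of -0.23 (-0.36 to -0.11) without those cells. Ifit3, an antiviral protein, had a ratio of 0.03 (-0.15 to 0.22), and 0.24 (0.03 to 0.45) without them. It was found in 35.6% of thinned Ifnar1-SA and 29.9% of thinned WT cells. The intervals of the shares overlapped for each of the 3 genes.

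Per cell, the list took a median of 3.60% of UMIs in Ifnar1-SA monocytes (lower and upper quartile 2.77 and 4.82%) and 2.74% in WT monocytes (1.91 and 4.56%). The share is a sum in which abundant genes weigh most, whereas the median log2 ratio over the list's genes was 0.10. The 4 most abundant were Ifitm3, Ifi27l2a, Ly6a and Isg15. With each library's 5 highest cells left out, these were at 6480, 5326, 2216 and 1693 CPM in Ifnar1-SA. In WT they were at 5886, 4272, 1306 and 1734 CPM. Their part in the per-cell gap was not tested. The gap between the medians lay among the low cells. Of Ifnar1-SA monocytes 28 of 255 (11.0%, 7.42 to 15.5%) stayed under 2%, against 45 of 166 (27.1%, 20.5 to 34.5%) in WT. Over 6% stood 12.2% of Ifnar1-SA and 13.3% of WT monocytes, so the upper ends ran together, and the spread over cells was narrower in Ifnar1-SA, with coefficients of variation of 45.9% in Ifnar1-SA and 62.1% in WT. Both limits (2 and 6%) were set after the values were seen, and 18 Ifnar1-SA and 22 WT cells lay within 0.2 points of the lower one. The share under 2% was less far apart over Xist-only cells, at 14.8% (9.39 to 21.7%) in Ifnar1-SA and 26.0% (19.2 to 33.6%) in WT, and with at least 5000 UMIs, at 16.0% (10.5 to 22.9%) in Ifnar1-SA and 27.7% (20.4 to 36.0%) in WT, and in both cases the intervals overlapped. They overlapped too for the 40 Y-linked Ifnar1-SA cells, at 12.5% (4.19 to 26.8%), against all WT monocytes. Under the 14 alternatives that choose other cells the median was 3.31 to 3.74% in Ifnar1-SA and 2.48 to 2.96% in WT. C1q macrophages had medians of 2.73% in Ifnar1-SA and 1.98% in WT.

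**Figure D5:**
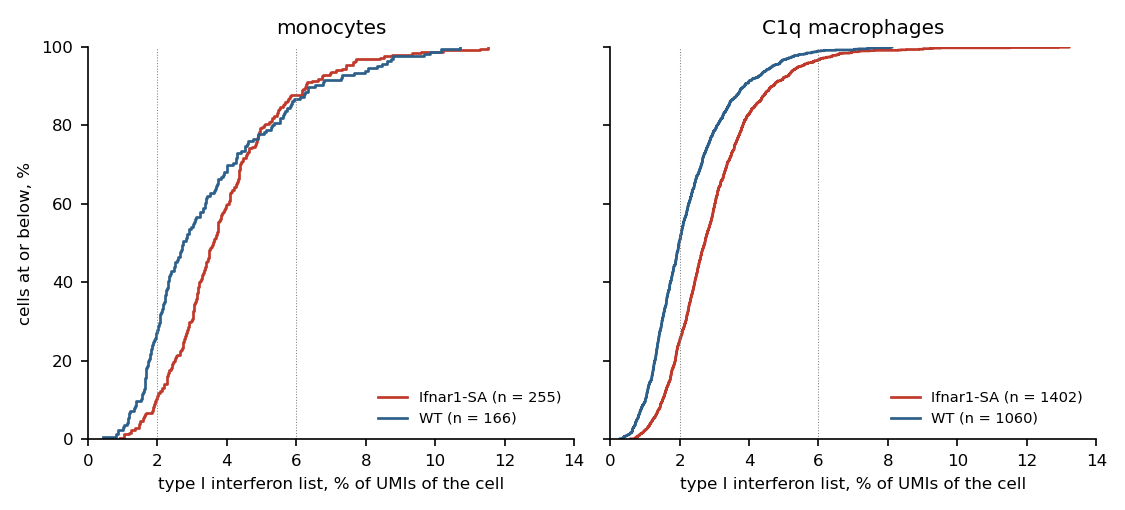
Share of cells (vertical, %) at or below a given part of UMIs on the type I interferon list (horizontal, %), Ifnar1-SA red and WT blue, monocytes left and C1q macrophages right; dotted lines are 2 and 6%. In monocytes the curves part at the low end, where 11.0% of Ifnar1-SA and 27.1% of WT cells lie under 2%, and run close together at the high end, and in macrophages they stay apart.

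Within each library the monocytes with most interferon transcripts also had more Plac8 and Ccl2. Each library's members were cut into tertiles by the list's share, 85 cells each in Ifnar1-SA and 55 or 56 in WT. Ly6c2, on which the cells were chosen and which is given as a description, was at 6980 CPM in the top tertile and 1900 CPM in the bottom tertile of Ifnar1-SA, and at 6863 and 2191 CPM in WT. C1qa, of the other genes the rule cut on, had log2 ratios of the top over the bottom tertile of -0.85 (-1.17 to -0.53) in Ifnar1-SA and -1.70 (-2.16 to -1.26) in WT, so the tertiles differ along the gate as well. Plac8 had log2 ratios of the top over the bottom tertile of 1.54 (1.46 to 1.63) in Ifnar1-SA and 1.81 (1.71 to 1.91) in WT, and Ccl2 1.71 and 1.49. Arg1 stood lower in the top tertile, at -1.58 (-1.96 to -1.23) in Ifnar1-SA and -0.70 (-0.99 to -0.41) in WT, as did Spp1 at -1.75 and -1.45 and Fn1 at -1.26 and -0.89. H2-Aa had -0.52 in Ifnar1-SA and -1.16 in WT. Ccr2 hardly differed between the tertiles in Ifnar1-SA, at -0.03 (-0.24 to 0.18), and in WT had 0.34 (0.09 to 0.58). Median depth was 4808 UMIs in the top and 6455 in the bottom tertile of Ifnar1-SA, and 6307 and 7080 in WT, and its part was not tested.

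Interferon gamma leaning genes had 15 of 22 (68.2%) higher in Ifnar1-SA, near the 61.6% of all measured genes, and a median of 0.22. Iigp1, an immunity-related GTPase, had 0.75 (0.48 to 1.02) and Il18bp, the decoy for interleukin 18, 0.77 (0.42 to 1.13), while Cxcl9, a chemokine for activated T cells, was at 783.7 CPM in Ifnar1-SA and 1231 CPM in WT, a log2 ratio of -0.65. Receptors and signalling genes of the interferon pathway had 8 of 12 higher and a median of 0.15, with Stat2 at 0.22 (-0.09 to 0.53) and Usp18, which shuts the receptor off, at 0.16 (-0.11 to 0.44).

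The remaining lists had medians near that of all genes, but not all their members lay there. Medians were 0.042 for hypoxia and glycolysis (12 of 21 higher), 0.14 for lipid handling and lysosome (9 of 15), -0.028 for phagocyte oxidase and microbicidal genes (6 of 13), 0.021 for Fc receptors (4 of 5) and 0.069 for costimulation and checkpoint ligands (7 of 12). They were 0.026 for transcription factors (10 of 17), 0.18 for sterol genes (5 of 9), -0.014 for survival and death (7 of 15) and 0.054 for dissociation stress (10 of 17). Of the 13 phagocyte oxidase and microbicidal genes 6 had an interval below 0 and 0 above, and 3 were called lower. Dissociation stress genes had 6 of 17 intervals above 0 and 4 below, lipid genes 5 of 15 and 3, and transcription factors 3 of 17 and 5. Of all measured genes 12.2% had an interval above 0 and 6.97% below. Single members lay further out. Wfdc17, a small secreted inhibitor of myeloid cells, had -0.78 (-0.92 to -0.63), and Fcgr4, an IgG receptor, was at 378.3 CPM in Ifnar1-SA and 270.6 CPM in WT, a log2 ratio of 0.48 (0.30 to 0.67). The early response genes Jun and Fos had 0.69 (0.51 to 0.88) and 0.45 (0.36 to 0.54), and heat-shock gene Hspa1a -0.29 (-0.37 to -0.22), or -0.10 (-0.19 to -0.01) with each library's 5 highest cells left out; these genes also respond to tissue digestion, which was not tested.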

How the data were processed

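Deposited files hold whole UMI counts of each gene in each barcode, not normalized. The file headers name Cell Ranger 4 and the submitters' processing notes name build mm10. Both matrices list 6794880 barcodes and 32285 genes and are unfiltered. Barcodes were filtered and members chosen as the report states, with no doublet caller; the T cell limit and the alternatives on depth and other markers address doublets in part. The members, gene lists and rules were chosen with earlier results of these data known.

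UMIs were summed per library over members and scaled to CPM. Ratios of CPM, Ifnar1-SA over WT, carry 95% limits from an exact binomial test conditional on the summed UMIs, and shares have exact Clopper-Pearson intervals. The calls were tried on simulated totals that held counting error only. That trial had no variation between cells, animals or libraries, so it does not bear on calls that rest on a few cells. With 1 library per group there is no test and no p-value. Named were the 12 highest and 12 lowest genes past 1.5-fold, the 12 most and 12 least monocyte genes by the smaller ratio of both libraries, the rule's markers, Ifnar1, Ifnar2 and, per list, up to 6 members with the largest ratios and the 4 most abundant of at least 100 CPM; mitochondrial, ribosomal, antigen receptor, sex-linked, histone and predicted genes were left out of rankings. Other list members, and the cells named as holding most of a gene, were chosen after values were seen. Members with the largest ratios are by construction the ends of their lists. T cell barcodes held at least 10 T cell UMIs and under 3 of C1q, Lyz2 and Csf1r. Gene coordinates are from GENCODE vM21. Analyses used Python 3.11.15, numpy 2.4.6, scipy 1.17.1 and pandas 2.3.3. The closing section gives the alternatives tried, among them other limits of the rule, equal weight per cell, thinning and subtraction of free RNA.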

Additional observations from a re-analysis of the deposited data

Results flagged for a closer look

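Some lists had medians of opposite sign in monocytes and in C1q macrophages for the same contrast of Ifnar1-SA over WT; none of these differences was tested, and both classes come from the same 2 libraries. The widest gap was that of MHC class II presentation, 0.20 in monocytes and -0.58 in macrophages. Hypoxia and glycolysis genes had 0.042 in monocytes and -0.29 in macrophages, where 1 of 20 was higher; with Y-linked Ifnar1-SA cells alone the macrophage median was 0.034, with 12 of 20 higher, and the monocyte median 0.21. Other gaps were narrower, with lipid handling and lysosome genes at 0.14 and -0.10, sterol genes 0.18 and -0.05, and dissociation stress genes 0.054 and -0.15. The other 4 lay within 0.1 of 0 in both classes: costimulation and checkpoint ligands at 0.069 and -0.0044, phagocyte oxidase and microbicidal genes at -0.028 and 0.012, transcription factors at 0.026 and -0.0047, and survival and death genes at -0.014 and 0.060. The macrophage median of costimulation and checkpoint ligands was 0.19 with cells weighted equally, 0.16 thinned and 0.22 with Y-linked cells, and that of phagocyte oxidase genes -0.016 thinned.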

How the results depend on the processing

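No paired analysis was possible because each genotype has 1 library. Of 467 values of shares, counts and list medians under the alternatives, 426 stayed near the main value, and of 475 values of named genes 389 did.

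The monocyte share in Ifnar1-SA was 6.06% with a minimum of 10 myeloid UMIs, 3.34% with 40, 3.94% with C1q under 0.25%, 7.76% under 1%, 5.77% with at most 5% mitochondrial UMIs, 3.74% with no T cell or cell cycle UMI and 4.08% without barcodes of other cell types. In WT it was 3.33% with 40 myeloid UMIs, 3.38% with C1q under 0.25%, 6.04% under 1%, 4.88% with at least 5000 UMIs, 3.1% with no T cell or cell cycle UMI and 3.23% without other cell types. Genes called higher numbered 9 with 10 myeloid UMIs, 7 with C1q under 1%, 5 thinned, 9 centred on the median gene, 22 with free RNA subtracted and 95 with a minimum of 10 UMIs in place of 50 and no CPM minimum, both at once; genes called lower numbered 13 thinned and 50 under that last setting.

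The MHC class II median was 0.037 and 0.13 with a Ly6c2 minimum of 1 and 4, 0.078 with 40 myeloid UMIs, 0.13 with at most 5% mitochondrial UMIs, 0.27 with no T cell or cell cycle UMI, 0.12 centred, -0.068 with C1q under 1% and -0.062 with Y-linked Ifnar1-SA cells; the cause was not tested. The chemokine median was -0.12 with C1q under 1%, -0.62 with Y-linked cells and -0.074 without large barcodes and other cell types, an alternative chosen after seeing the data. Sterol genes had -0.32 at up to 20000 UMIs, -0.36 without other cell types and -0.37 with both. Lipid genes had -0.088 with no T cell or cell cycle UMI and -0.14 with Y-linked cells, Fc receptors 0.18 with no T cell or cell cycle UMI and 0.19 thinned, and with Y-linked cells inflammatory mediators had -0.63 and dissociation stress genes -0.23.

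Igfbp7 turned to -2.64 with C1q under 0.25%, -2.84 with at most 5% mitochondrial UMIs, -1.36 without other cell types and -1.43 with both limits. Sparc turned to -0.19 with C1q under 0.25% and -1.88 with Y-linked cells, Timp2 to -0.25 and Fabp5 to -0.18 with no T cell or cell cycle UMI, and S100a8 to 1.22 without other cell types and 1.16 with both limits. Igfbp3 and S100a9 have no finite ratio to compare. With 421 members, genes under 50 UMIs were beyond the depth of these calls.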
